A study of Mus musculus with 3 samples.

Results

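The 9 growth genes considered here belong to the Lin28, Igf2bp, Hmga and Myc families and were followed across sorted nephron progenitors of the fetal mouse kidney. They are Lin28a, Lin28b, Igf2bp1, Igf2bp2, Igf2bp3, Hmga1, Hmga2, Mycn and Myc, and they were taken by symbol, as 9 of the 27998 genes in the deposited table. The cells came from pooled kidneys of several litters of Six2GFP+ mouse embryos at stage E14.5. They were sorted for Six2GFP fluorescence and run as 3 tubes on a 10x Chromium chip, which captures transcripts at their 3′ end and counts them by unique molecular identifiers (UMIs). The labels put the 3 samples in a single group, so the comparisons are between cells of the same tube. The sort selects for cells with the reporter, and the labels do not state how the reporter was built. The kept cells still included 73 with several immune markers, described below.

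Cells were grouped by raw UMIs of genes that mark the steps of nephron formation. Lhx1 cells (79) had at least 1 UMI of Lhx1, a transcription factor of the early nephron. This group also held ureteric markers, given below, so it is not purely early nephron by its markers. Wnt4 cells (410) had at least 1 UMI of Wnt4, the signal that starts the change of progenitors into epithelium, and none of Lhx1. Of these, 280 had only 1 Wnt4 UMI. Fgf8 cells (2514) had at least 1 UMI of the growth factor gene Fgf8 and none of Wnt4 or Lhx1. Six2-only cells (3840) had at least 1 UMI of Six2, which keeps progenitors self-renewing, and none of the other 3. A further 1032 of the 7875 kept cells had none of the 4. Libraries are named 1, 2 and 3 after the suffix of the cell barcode. Levels are counts per 1000000 UMIs (CPM), taken from the UMIs summed over a cell group in a library, and tests were made on these 12 sums with edgeR's quasi-likelihood test, the library as a block and Benjamini-Hochberg adjustment over all genes. A gene was called at an adjusted p under 0.05. With this block, the p-values measure only how evenly the group differences recur within these 3 tubes, which may be technical replicates.

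Lin28a and Lin28b encode RNA-binding proteins that hold back the maturation of let-7 microRNAs. Mature let-7 in turn represses messages with a matching site in the 3′ untranslated region (UTR), among them, in several tissues and species, those of Lin28, Igf2bp and Hmga2. In the mouse kidney, Lin28b and let-7 are known to affect how long nephron progenitors persist, and Mycn and Myc are known to sustain their growth. Mature microRNAs carry no poly(A) tail and are not counted by this assay.

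The let-7 family is shown because it links these genes. Of its RefSeq mature forms (build GRCm38.p6), 10 distinct sequences from 12 genes, miR-98 included, shared the seed GAGGUAG, and let-7j alone had GAGGUAU. Capitals mark the seed, bases 2 to 8.
let-7a-5p (chromosome 13, 48538239 to 48538260, minus strand): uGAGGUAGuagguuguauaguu
let-7c-5p (chromosome 16, 77599672 to 77599693, plus strand): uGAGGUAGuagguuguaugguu
let-7g-5p (chromosome 9, 106178846 to 106178867, plus strand): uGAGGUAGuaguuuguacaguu
miR-98-5p (chromosome X, 151913229 to 151913250, plus strand): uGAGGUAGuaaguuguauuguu
let-7j (chromosome 3, 140028281 to 140028304, plus strand): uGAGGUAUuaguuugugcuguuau

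The complement of the shared seed, CTACCTC, was searched on the sense strand of the longest annotated 3′ UTR of every protein-coding gene (GENCODE M21, GRCm38). It was found in 8.96% of 20961 UTRs and in 7 of the 9 growth genes, with 17 sites, of which 9 were followed by an A. Capitals mark the match in the first site of each gene.
Lin28a (chromosome 4, 134005189 to 134005211, minus strand): gcacagcctgttgaaCTACCTCa
Lin28b (chromosome 10, 45381022 to 45381044, minus strand): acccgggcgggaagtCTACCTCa
Igf2bp1 (chromosome 11, 95961778 to 95961800, minus strand): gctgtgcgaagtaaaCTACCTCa
Igf2bp2 (chromosome 16, 22059473 to 22059495, minus strand): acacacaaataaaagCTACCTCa
Igf2bp3 (chromosome 6, 49086787 to 49086809, minus strand): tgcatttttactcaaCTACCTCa
Hmga1 (chromosome 17, 27563277 to 27563299, plus strand): tcctctgttcacaaaCTACCTCt
Hmga2 (chromosome 10, 120364224 to 120364246, minus strand): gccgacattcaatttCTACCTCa

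Lin28b, Igf2bp1 and Hmga2 held 4 sites each, Lin28a held 2 and Igf2bp2, Igf2bp3 and Hmga1 held 1 each. Long UTRs hold more matches: among 2415 UTRs of about the length of that of Hmga2 (3014 bases; 0.8 to 1.25 times), 0.12% had as many as 4. The same share was 0.3% of 1346 UTRs for Lin28b (4445 bases) and 0.33% of 601 for Igf2bp1 (6337 bases). Each of these shares rests on very few UTRs. For Lin28a (2775 bases), 2.07% of 2606 UTRs had as many as 2. For Igf2bp2, Igf2bp3 and Hmga1, 12.1%, 13.3% and 8.1% of UTRs of like length held a site. The UTRs of Mycn (913 bases) and Myc (466 bases) held no match, which says only that these letters are not in the annotated window. A match is a description of sequence and not evidence of binding.

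The Mycn promoter is shown because Mycn had the largest change of the set, in Wnt4 cells. The window runs from 250 bases before to 50 bases after the RefSeq start (GRCm38.p6, chromosome 12, 12941787 to 12942086, minus strand), and capitals mark TTTGGCGC, the core of sites bound by E2F factors of the cell cycle.
Mycn promoter: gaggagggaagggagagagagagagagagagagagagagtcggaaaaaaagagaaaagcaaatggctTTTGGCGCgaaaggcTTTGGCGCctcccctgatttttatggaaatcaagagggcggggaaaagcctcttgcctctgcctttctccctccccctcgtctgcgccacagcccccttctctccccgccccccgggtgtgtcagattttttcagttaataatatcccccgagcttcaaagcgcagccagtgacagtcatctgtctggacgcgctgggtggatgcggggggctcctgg

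TTTGGCGC stood in it at 2 places, 183 and 168 bases before the start, and in 0.51% of 32851 promoters of the same length on either strand. It was searched after the sequence had been read. CTTTGAT and CTTTGTT, the core of sites bound by the Tcf and Lef partners of beta-catenin, and CACGTG, the core bound by Myc with Max, were not in this window. On either strand they stood in 3.73%, 5.85% and 7.15% of promoters, and of the 9 genes only Igf2bp3 and Lin28b held any of them, in both cases CACGTG.

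The depth behind the levels differed between groups. Median UMIs per cell lay between 11734 and 22667 in the 3 libraries for Lhx1 cells, 14039 and 20098 for Wnt4 cells, 13224 and 17019 for Fgf8 cells and 11515 and 15576 for Six2-only cells. Cells with a UMI of the proliferation genes Mki67 or Top2a made up 68.6% ± 18.3 of Lhx1, 68.3% ± 6.44 of Wnt4, 55.9% ± 3.11 of Fgf8 and 47.2% ± 4.78 of Six2-only cells (SD, n = 3 libraries). The progenitor marker Cited1, which the grouping did not use, was at 76.9 ± 35.8 CPM in Lhx1, 112 ± 38.8 in Wnt4, 167 ± 23.5 in Fgf8 and 184 ± 24.2 in Six2-only cells (SD, n = 3). Within Wnt4 cells Cited1 was at 142 ± 38.9 CPM with 1 Wnt4 UMI, 44.9 ± 16.4 CPM with 2 and 38.7 ± 28.8 CPM with 3 or more. Summed ureteric markers (8 genes) were at 106 to 356 CPM in Lhx1 cells and 48.0 to 56.9 CPM in Wnt4 cells. All 8 were found in Lhx1 cells, while Ret and Wnt9b were at 0 in Wnt4 cells. Most of the Wnt4 sum was Hoxb7, at 49.0 ± 5.49 CPM, which was also at 63.4 ± 10.8 CPM in Fgf8 and 60.7 ± 9.52 CPM in Six2-only cells. Hoxb7 was at 90.0 ± 17.8 CPM in Lhx1 cells. Calb1 was at 91.0 ± 88.4 CPM in Lhx1 and 0.819 ± 0.458 CPM in Wnt4 cells (SD, n = 3). Summed immune markers (6 genes) were at 53.6 CPM in Wnt4 cells of library 2 and at 0 to 15.4 CPM in the other 11 sums. As a background for shares of cells, 73 cells with UMIs of at least 3 of these 6 immune markers, called immune-like here, were read beside the groups, at a median of 8139 to 10280 UMIs per cell. This class was set after the data were seen and overlaps the groups. A sum does not separate more cells with a transcript from more transcript per cell. For some of the genes, shares of cells are therefore given beside the sums, in part with each cell thinned to 5000 UMIs.

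**Figure D1:**
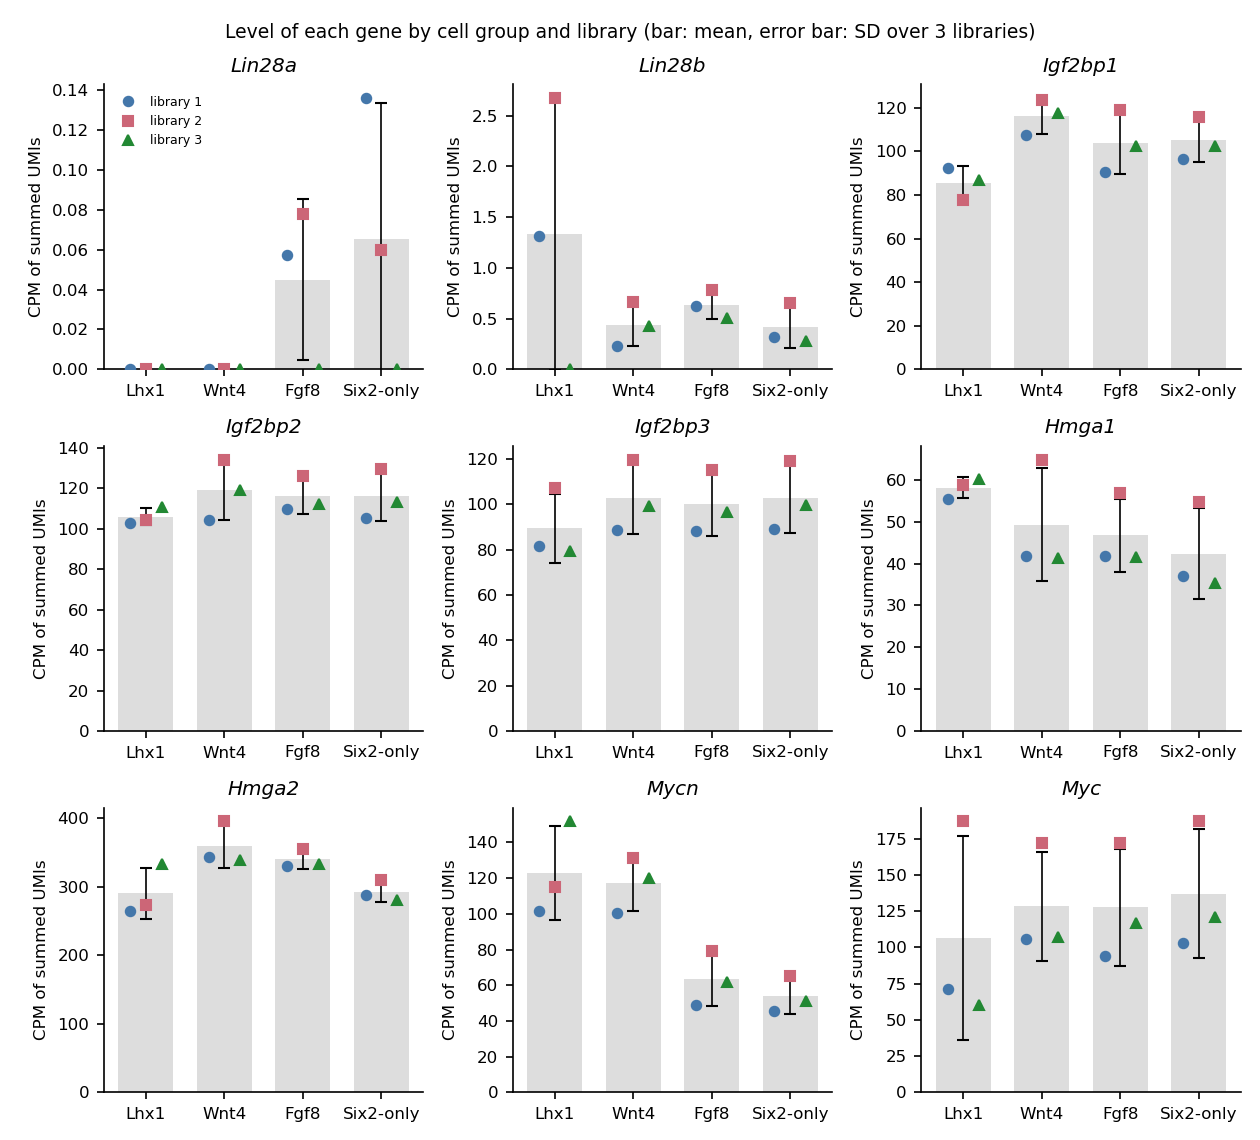
Level of each of the 9 genes, as CPM of UMIs summed per cell group and library. Bars give the mean and error bars the SD over 3 libraries, and points are libraries. Mycn in Lhx1 and Wnt4 cells lies above its level in Fgf8 and Six2-only cells in each library. Hmga2 has its highest mean in Wnt4 cells, but Wnt4 and Fgf8 cells did not differ past the threshold. Library 2 has the highest Myc in every group.

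Lin28a and Lin28b, the regulators of let-7 maturation, were at the limit of detection. Lin28a (ENSMUSG00000050966, chromosome 4, 134003330 to 134018841) had 6 UMIs in all 7875 cells. None were in Lhx1 or Wnt4 cells, 2 were in Fgf8 and 4 in Six2-only cells. The 0 of 410 Wnt4 cells allow a share of cells with a UMI of up to 0.732% and the 0 of 79 Lhx1 cells up to 3.8%, for counting error only, which does not limit the share of cells that express the gene. An antisense gene, Gm13061, overlaps Lin28a, and the sources do not say whether the counting used strand.

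Lin28b (ENSMUSG00000063804, chromosome 10, 45376620 to 45486395), the family member most often tied to fetal growth programmes, had 68 UMIs. In libraries 1, 2 and 3 it had 1, 1 and 0 UMIs in Lhx1 cells, 1 each in Wnt4 cells, 11, 10 and 6 in Fgf8 cells, and 7, 11 and 5 in Six2-only cells. The share of cells with a UMI was 2.53% of Lhx1, 0.732% of Wnt4, 1.07% of Fgf8 and 0.599% of Six2-only cells, against 2.74% of the immune-like cells (2 of 73; exact 95% interval 0.334% to 9.55%). No share was above that of the immune-like cells, but both UMIs of those cells were in library 2, and the interval spans all the group shares. So few cells cannot decide whether Lin28b stood above background at this depth. Within Six2-only cells, 1.02% of cells without Cited1 (14 of 1368; exact 95% interval 0.561% to 1.71%) and 0.364% of cells with Cited1 (9 of 2472; 0.167% to 0.69%) had a Lin28b UMI. There were 4, 7 and 3 UMIs without and 3, 4 and 2 UMIs with Cited1 in libraries 1, 2 and 3. The levels were 0.549, 1.19 and 0.560 CPM without Cited1 and 0.202, 0.368 and 0.158 CPM with it. In each library the 95% Poisson intervals of these levels overlapped. So few UMIs cannot decide whether Lin28b differed between cells with and without Cited1. The difference was not tested. Neither gene passed the filter on low counts, so 7 of the 9 genes were tested.

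The Igf2bp genes encode RNA-binding proteins that stabilise bound messages or change their translation, among them those of Igf2, H19 and Myc. All 3 were found in most progenitors, and none was called in any of the 4 comparisons of cell groups. Igf2bp1 (ENSMUSG00000013415, chromosome 11, 95957163 to 96005940) was at 92.3, 77.5 and 86.8 CPM in Lhx1 cells of libraries 1, 2 and 3, 107, 124 and 117 CPM in Wnt4 cells, 90.6, 119 and 102 CPM in Fgf8 cells and 96.6, 116 and 102 CPM in Six2-only cells. All Lhx1 sums lay below all Wnt4 sums, and the levels of the other 3 groups overlapped. It was 0.15 ± 0.06 higher on the log2 scale (SE) in Wnt4 than in Six2-only cells (edgeR adjusted p = 0.0647) and 0.42 ± 0.13 lower, a log2 change of -0.42, in Lhx1 than in Wnt4 cells (edgeR adjusted p = 0.146), and neither passed.

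Wnt4 cells with more Wnt4 UMIs had more Igf2bp1 in each library than those with 1, without a steady order. Cells with 3 or more Wnt4 UMIs had 116, 214 and 129 CPM of Igf2bp1 in libraries 1, 2 and 3. Cells with 2 had 130.0, 117 and 152 CPM, and cells with 1 had 97.8, 115 and 98.3 CPM. In library 2 the classes with 3 or more and with 2 held only 7 and 8 cells. With groups defined by at least 2 UMIs of their gene, library 2 held 15 Wnt4 cells. Igf2bp1 was then 0.40 higher in Wnt4 than in Six2-only cells on the log2 scale and passed (edgeR adjusted p = 0.000296). It also passed without library 2 (edgeR adjusted p = 0.043), with only the compared groups in the fit (0.0383), with AT-rich barcodes left out (0.0431) and with no quality filter (0.0417). Over its 15 alternatives the adjusted p lay between 0.000296 and 0.89. Gm29202 overlaps Igf2bp1 on the other strand and Mir3063 on the same.

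Igf2bp2 (ENSMUSG00000033581, chromosome 16, 22059009 to 22163299) averaged 106 ± 4.27 CPM in Lhx1, 119 ± 14.9 in Wnt4, 116 ± 8.98 in Fgf8 and 116 ± 12.5 in Six2-only cells (SD, n = 3). Igf2bp3 (ENSMUSG00000029814, chromosome 6, 49085223 to 49214957) averaged 89.4 ± 15.2 CPM in Lhx1, 103 ± 15.8 in Wnt4, 99.9 ± 13.8 in Fgf8 and 103 ± 15.1 in Six2-only cells. No neighbours in these orders differed beyond their spread. Between Wnt4 and Six2-only cells the log2 change was 0.02 ± 0.05 for Igf2bp2 and -0.01 ± 0.05 for Igf2bp3 (edgeR adjusted p = 0.844 and 0.948). The genes Malsu1 and Gm18010 overlap Igf2bp3 on the other strand.

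The 3 paralogs differed in the immune-like cells. Igf2bp3 was at 66.1, 111 and 93.1 CPM there in libraries 1, 2 and 3 (66 UMIs, in 42 of 73 cells), Igf2bp1 at 29.4, 58.1 and 63.3 CPM (37 UMIs) and Igf2bp2 at 14.7, 9.68 and 14.9 CPM (10 UMIs). At 5000 UMIs per cell, 41.3% ± 3.29 of immune-like cells had an Igf2bp3 UMI, against 39.3% ± 3.81 of Six2-only cells, and the shares for Igf2bp2 were 4.29% ± 4.35 and 42.7% ± 3.56 (SD, n = 3). The UMIs of Igf2bp3 and Igf2bp2 were 66 and 10 in immune-like cells, against 5758 and 6543 in Six2-only cells. The part of free RNA in these values was not tested.

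The Hmga genes encode small chromatin proteins that bend AT-rich DNA and are typical of embryonic and proliferating cells. Hmga2 (ENSMUSG00000056758, chromosome 10, 120361275 to 120476469) rose in Wnt4 and in Fgf8 cells over Six2-only cells. It was at 343, 396 and 339 CPM in Wnt4 cells of libraries 1, 2 and 3 and at 331, 355 and 333 CPM in Fgf8 cells, against 288, 309 and 280.4 CPM in Six2-only cells. All Wnt4 and all Fgf8 sums lay above all Six2-only sums. The log2 change was 0.28 ± 0.04 for Wnt4 over Six2-only cells and 0.22 ± 0.03 for Fgf8 over Six2-only cells (SE; edgeR adjusted p = 2.45e-06 and 2.95e-06). In the first comparison 17.5% of 12269 genes were called, 8.99% higher and 8.53% lower, and in the second 10.1%, 5.31% higher and 4.75% lower. Of the 7 tested growth genes, 2 were called higher and 0 lower in the first, and 3 and 0 in the second. With cells thinned to 5000 UMIs and grouped anew, which left 77, 46 and 46 Wnt4 cells in libraries 1, 2 and 3, the change was 0.07 for Wnt4 cells (edgeR adjusted p = 0.881) and 0.28 for Fgf8 cells (edgeR adjusted p = 9.81e-07). In the full groups at that depth, 78.2% ± 1.38 of Wnt4, 78.5% ± 1.8 of Fgf8 and 71.3% ± 0.515 of Six2-only cells had a Hmga2 UMI (SD, n = 3), against 4.29% ± 4.35 of immune-like cells. Without the library block neither call held (edgeR adjusted p = 0.284 for Wnt4 and 1.0 for Fgf8 cells). Wnt4 and Fgf8 cells did not differ past the threshold in Hmga2, with a log2 change of 0.06 ± 0.04 (SE; edgeR adjusted p = 0.484).

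In Lhx1 cells Hmga2 fell to 265, 273 and 333 CPM, against 343, 396 and 339 CPM in Wnt4 cells. All Lhx1 sums lay below all Wnt4 sums, library 3 by the least. The log2 change was -0.34 ± 0.08 (edgeR adjusted p = 0.0154), and it was the only one of the 7 called in a comparison where 1.41% of genes were called, 0.285% lower and 1.12% higher. The call was lost without library 1 (edgeR adjusted p = 0.433), without library 2 (0.0633) and without the block (0.465). It was also lost with only the compared groups in the fit (edgeR adjusted p = 0.225) and with groups defined by at least 2 UMIs (0.141). The change was -0.15 with thinned cells (edgeR adjusted p = 0.928) and -0.07 in cells without Mki67 and Top2a (0.982). It rests on 79 Lhx1 cells, which also held the ureteric markers given above, and their part in it was not tested. With cells that held markers of other types left out, the change was -0.41 (edgeR adjusted p = 0.0622). Mir763 lies in Hmga2 on the same strand, and 2 genes, 1700006J14Rik and 9230105E05Rik, on the other.

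Hmga1 (ENSMUSG00000046711, chromosome 17, 27556497 to 27563674) was at 55.4, 58.8 and 60.3 CPM in Lhx1 cells, 41.7, 64.8 and 41.2 CPM in Wnt4 cells, 41.8, 56.8 and 41.5 CPM in Fgf8 cells and 37.0, 54.8 and 35.2 CPM in Six2-only cells. Library 2 was highest in 3 of the 4 groups, and the groups overlapped. The log2 change of 0.15 ± 0.05 for Fgf8 over Six2-only cells passed (edgeR adjusted p = 0.0444), but not without library 1 (0.239), library 3 (0.162) or the block (1.0), nor under DESeq2 (0.212). With thinned cells it was 0.03 (edgeR adjusted p = 0.972), and it was also lost with cells holding markers of other types left out (0.258), in cells without Mki67 and Top2a (0.182) and with the highest doublet scores left out (0.094). Gm49774 and AI413582 overlap Hmga1 on the other strand.

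Mycn (ENSMUSG00000037169, chromosome 12, 12936093 to 12941914), which encodes the Myc-family transcription factor typical of embryonic growth, was higher in Wnt4 than in Fgf8 and Six2-only cells. It was at 102, 115 and 152 CPM in Lhx1 cells of libraries 1, 2 and 3 and at 100.3, 131 and 120.3 CPM in Wnt4 cells. Fgf8 cells had 48.9, 78.9 and 62.0 CPM and Six2-only cells 45.8, 65.3 and 51.0 CPM. All Wnt4 and Lhx1 sums lay above all Fgf8 and Six2-only sums, while the Fgf8 and Six2-only sums overlapped, as did the Lhx1 and Wnt4 sums. The log2 change for Lhx1 over Wnt4 cells was 0.03 ± 0.13 (edgeR adjusted p = 0.975), but -1.94 with thinned cells, which left 11, 11 and 9 Lhx1 cells in libraries 1, 2 and 3 (edgeR adjusted p = 0.0514), and -1.01 in cells without Mki67 and Top2a (0.385).

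The log2 change of Mycn was 1.14 ± 0.07 for Wnt4 over Six2-only cells (SE; edgeR adjusted p = 1.23e-13), with folds of 2.19, 2.01 and 2.36 in libraries 1, 2 and 3. It passed under each of 15 alternatives, between 1.10 and 1.62, and the adjusted p lay at or below 0.00207. The value of 1.62 came with Wnt4 cells of at least 2 UMIs, of which library 2 held 15. For Wnt4 over Fgf8 cells the change was 0.91 ± 0.07 (edgeR adjusted p = 3.44e-11), in a comparison where 6.46% of genes were called, 2.97% higher and 3.49% lower, and it was the only growth gene called there. For Fgf8 over Six2-only cells it was 0.22 ± 0.05 (edgeR adjusted p = 0.00258), higher in 3 of 3 libraries. The last call was lost under DESeq2 (adjusted p = 0.0934), without the block (edgeR adjusted p = 1.0) and with cells thinned to 5000 UMIs (0.281). The comparisons share their Fgf8, Six2-only or Wnt4 sums and are not independent.

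**Figure D2:**
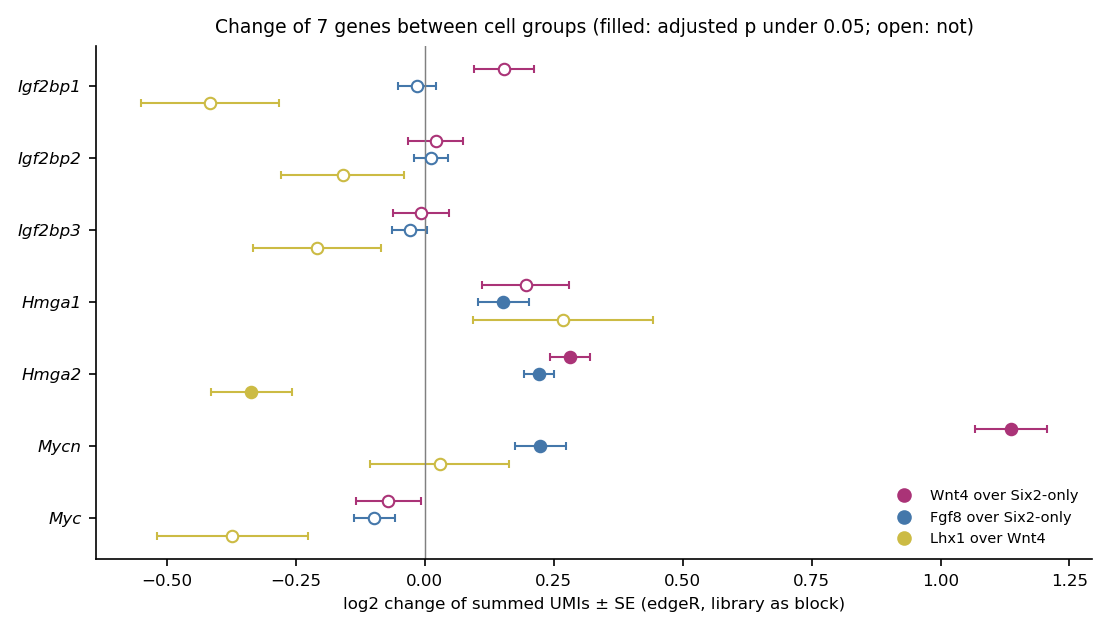
Log2 change of summed UMIs of the 7 tested genes (x axis, with SE) in 3 comparisons of cell groups. Filled points passed at an adjusted p under 0.05. Mycn stands at 1.14 for Wnt4 over Six2-only cells, and Hmga2 has filled points on both sides of 0.

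More cells held Mycn as well. A UMI was found in 65.2% ± 22.6 of Lhx1, 67.7% ± 3.1 of Wnt4, 49.8% ± 3.24 of Fgf8 and 40.3% ± 0.915 of Six2-only cells (SD, n = 3). At 5000 UMIs per cell the shares were 30.2% ± 15.4, 38.9% ± 5.47, 23.1% ± 3.29 and 20.3% ± 3.46 in the same order. Of the 73 immune-like cells none had a Mycn UMI, which allows a share of cells with a UMI of up to 4.11% at their lower depth. In each library cells with more Wnt4 UMIs had more Mycn than cells with 1. Cells with 1 Wnt4 UMI had 78.6, 111 and 97.5 CPM of Mycn. Cells with 2 had 92.6, 249 and 164 CPM, and cells with 3 or more had 166, 199 and 134 CPM. In library 2 the classes with 2 and with 3 or more held only 8 and 7 cells. In each library the lowest of these Mycn levels lay above the Six2-only level, but libraries 2 and 3 were highest at 2 UMIs and library 1 at 3 or more. Depth and proliferation moved with it: cells with 3 or more Wnt4 UMIs had medians of 18385 to 24845 UMIs, with Mki67 or Top2a in 77.8% to 100% of cells, against 13554 to 18644 UMIs and 55.7% to 71.0% in cells with 1. Their part in this step was not tested.

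**Figure D3:**
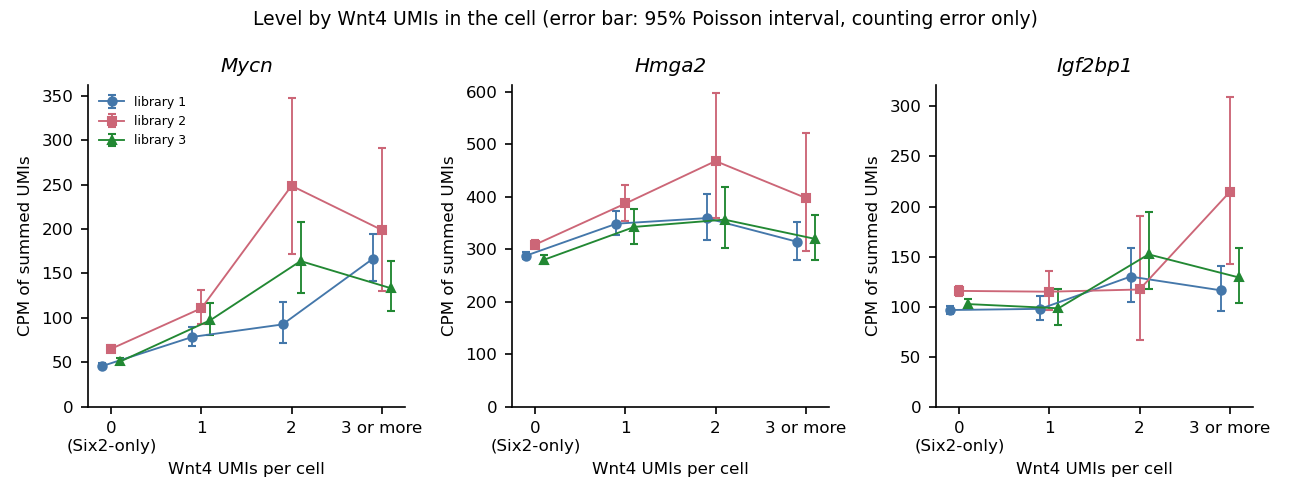
Level of Mycn, Hmga2 and Igf2bp1 (CPM of summed UMIs) by the number of Wnt4 UMIs in the cell, per library. Error bars are 95% Poisson intervals for counting error only, and the position at 0 is the Six2-only group. Mycn at 3 or more Wnt4 UMIs lies between 134 and 199 CPM and in Six2-only cells between 45.8 and 65.3 CPM.

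Within Wnt4 cells Mycn was at 116, 143 and 116 CPM in cells without Cited1, the co-regulator gene of the least committed progenitors, and at 85.2, 122 and 124 CPM in cells with it. Library 3 ran against the other libraries. Within Six2-only cells it was at 55.9, 80.3 and 58.3 CPM in cells without Cited1 and 40.9, 57.2 and 47.9 CPM in cells with it, higher without Cited1 in 3 of 3 libraries. Wnt4 cells that also held Fgf8 had 117, 134 and 139 CPM, and those without Fgf8 had 91.2, 129 and 107 CPM. These splits were not tested. Cells that lacked a gene include cells in which it was missed.

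Myc (ENSMUSG00000022346, chromosome 15, 61985391 to 61990374), the family member that growth factors and stress induce within minutes, did not pass in any of the 4 comparisons of cell groups. It was at 71.2, 187 and 60.3 CPM in Lhx1 cells of libraries 1, 2 and 3, 106, 172 and 107 CPM in Wnt4 cells, 93.8, 172 and 117 CPM in Fgf8 cells and 103, 187 and 121 CPM in Six2-only cells. Library 2 was highest in all 4 groups. The log2 change was -0.07 ± 0.06 for Wnt4 over Six2-only cells (edgeR adjusted p = 0.503), where Mycn was at 1.14 ± 0.07. For Fgf8 over Six2-only cells it was -0.10 ± 0.04 (edgeR adjusted p = 0.114), and it passed with AT-rich barcodes left out (0.042). For Lhx1 over Wnt4 cells it was -0.37 ± 0.15 (edgeR adjusted p = 0.313), and it passed at -0.71 without library 2 (0.00715) and at -1.33 with cells of at least 2 UMIs of the defining genes (0.000116). The sign turned with thinned cells (0.23; edgeR adjusted p = 0.912) and in cells without Mki67 and Top2a (0.09; 0.985).

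Immediate early genes, like Myc, were highest in library 2. The summed level of Fos, Jun, Junb, Egr1, Ier2 and Btg2, 6 genes chosen after the data were seen, was 1442, 4925 and 1661 CPM in Lhx1 cells, 1664, 3805 and 1866 CPM in Wnt4 cells, 1976, 4324 and 2513 CPM in Fgf8 cells and 2236, 5212 and 2943 CPM in Six2-only cells of libraries 1, 2 and 3. Libraries 1 and 3 were in the other order for Myc in Lhx1 cells. The libraries are of a single group by their labels, so their difference was not tested, nor was the part of these genes in the level of Myc. A high level in library 2 was not particular to them. Over all kept cells, summed markers of uncommitted progenitors were at 1232, 1828 and 1415 CPM in libraries 1, 2 and 3, while summed immune markers were highest in library 3 (102 CPM). Ribosomal protein genes made up 24.6%, 12.9% and 21.0% of UMIs, and the part of this share in the levels was not tested.

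The growth genes were also read by proliferation. Six2-only cells with a UMI of Mki67 or Top2a were compared with Six2-only cells without, a comparison added after the data were seen, in which 39.3% of 11774 genes were called, 20.6% higher and 18.8% lower. Of the 7 tested genes, Hmga1 and Hmga2 were higher and Myc was lower, a share called that is close to that of all genes. Myc was at 94.6, 156 and 106 CPM in cells with these transcripts and at 115, 218 and 140.4 CPM in cells without, lower in 3 of 3 libraries, with a log2 change of -0.36 ± 0.04 (edgeR adjusted p = 2.13e-13). The same order held for the 3 libraries within Fgf8 and within Wnt4 cells, untested: Wnt4 cells with these transcripts had 97.1, 144 and 106 CPM and those without had 132, 238 and 114 CPM. Hmga1 was at 42.5, 60.7 and 37.9 CPM with and 29.4, 49.1 and 31.9 CPM without (log2 change 0.40 ± 0.06; edgeR adjusted p = 2.19e-07). Hmga2 changed by 0.18 ± 0.03 (edgeR adjusted p = 8.86e-08).

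Mycn did not pass between proliferating and other Six2-only cells, at 46.0, 59.3 and 49.3 CPM with and 45.6, 71.1 and 53.1 CPM without (log2 change -0.08 ± 0.06; edgeR adjusted p = 0.258). With only cells that lacked Mki67 and Top2a, Mycn was 1.15 ± 0.12 higher on the log2 scale in Wnt4 than in Six2-only cells (edgeR adjusted p = 4.58e-19). Leaving out those cells did not make the groups alike in proliferation. Summed markers of G2 and M phase were still at 874 ± 114 CPM in these Wnt4 and 538 ± 39.8 CPM in these Six2-only cells. Markers of S phase were at 1548 ± 270 and 1345 ± 247 CPM (SD over libraries). The part of proliferation in the Mycn change was not tested. Proliferating Six2-only cells were deeper, with medians of 13903 to 18247 UMIs per cell, against 10653 to 14253 in the others. With cells thinned to 5000 UMIs Myc stayed past the threshold at -0.35 and Hmga2 at 0.19, while Hmga1 did not (0.18; edgeR adjusted p = 0.327). Without the block none of the 3 passed (edgeR adjusted p = 0.238 for Myc, 0.298 for Hmga2 and 0.15 for Hmga1).

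**Figure D4:**
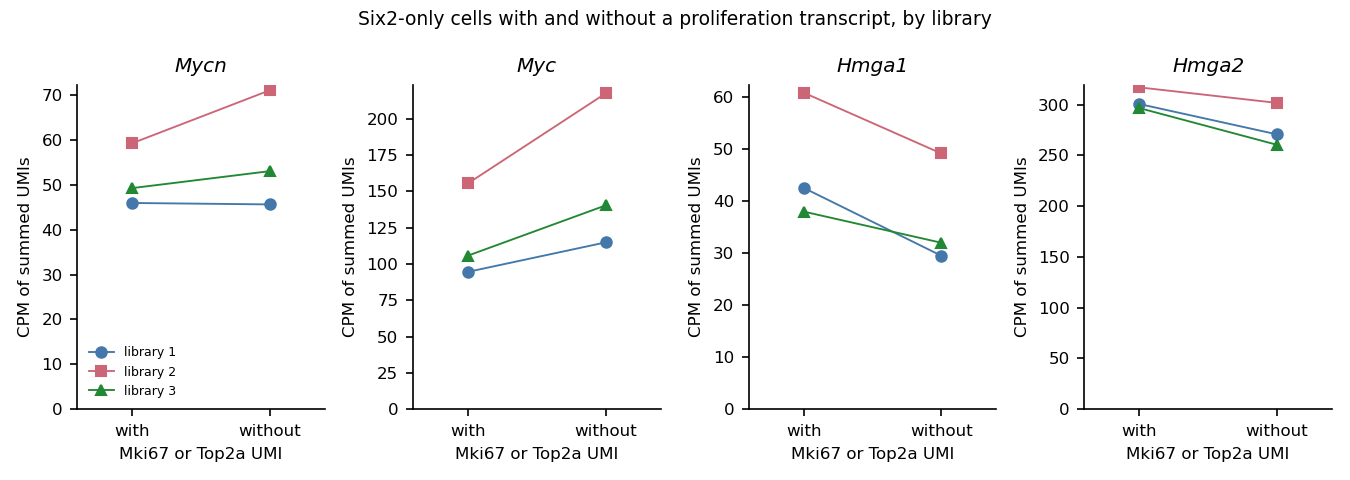
CPM of summed UMIs in Six2-only cells with (left) and without (right) a UMI of Mki67 or Top2a, with lines joining the 2 sums of each library. Myc is lower and Hmga1 and Hmga2 are higher with these transcripts in all 3 libraries, and Mycn has no common direction.

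Genes around let-7 were read from a list of 18 that process the microRNA or work with Lin28. Between Wnt4 and Six2-only cells 3 were higher, 1 was lower and 14 did not pass, where 8.99% of all tested genes were called higher and 8.53% lower (17.5% in all), with a median log2 change of 0.05 against -0.02 over all tested genes. Msi2 and Msi1, RNA-binding proteins of progenitor cells, were higher by 0.31 ± 0.06 and 0.26 ± 0.07, at 132 ± 12.9 and 59.2 ± 6.62 CPM in Wnt4 cells, against 105 ± 10.4 and 49.3 ± 5.25 CPM in Six2-only cells (SD, n = 3; edgeR adjusted p = 0.000203 and 0.0101). Tarbp2, a partner of Dicer, was higher by 0.22 ± 0.08 (edgeR adjusted p = 0.0492) and was lost without library 2 (0.0876) or library 3 (0.408). Zcchc11, an enzyme that tails let-7 precursors bound by Lin28, fell by 0.25 ± 0.06 on the log2 scale, to 73.6 ± 4.47 CPM in Wnt4 cells against 87.1 ± 4.49 CPM in Six2-only cells (edgeR adjusted p = 0.00411). Without library 1 Zcchc11 and Msi1 did not pass (edgeR adjusted p = 0.11 and 0.141).

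Of 22 tested let-7 targets known from the literature, 3 were higher and 1 was lower in Wnt4 cells, and 18 did not pass, with a median log2 change of 0.12. The share called is close to the 17.5% of all genes. The cyclin genes Ccnd1 and Ccnd2, which carry cells into the cycle, were higher by 0.47 ± 0.09 and 0.38 ± 0.05 (edgeR adjusted p = 0.000184 and 3.3e-07). Ccnd2 was at 501 ± 39.2 CPM in Wnt4 and 386 ± 32.4 CPM in Six2-only cells (SD, n = 3). Cdc34, a ubiquitin-conjugating enzyme of the cell cycle, was higher by 0.34 ± 0.08 (edgeR adjusted p = 0.00164) but not past the threshold without library 3 (0.0873). Igf1r, the receptor of insulin-like growth factors, fell by 0.33 ± 0.07 on the log2 scale (edgeR adjusted p = 0.00164), a call lost without library 1 (0.231). Ccnd1 is also among the markers of committing cells used here.

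Of 18 tested partners and rivals of Myc, 2 were higher and 1 was lower in Wnt4 cells, with a median log2 change of 0.05. This share, too, is close to the 17.5% of all genes. Aurka, the mitotic kinase that protects Mycn protein from decay, was higher by 0.51 ± 0.13 (edgeR adjusted p = 0.00445), but not without library 1 (0.238), and stood at -0.16 among cells without Mki67 and Top2a (0.938). Ruvbl2, a helicase that works with Myc on chromatin, was higher by 0.23 ± 0.05 (edgeR adjusted p = 0.000424; 0.0518 without library 1). Mxd4, a Max partner that opposes Myc, fell by 0.42 ± 0.07 on the log2 scale, to 69.4 ± 4.13 CPM in Wnt4 cells against 94.9 ± 12.9 CPM in Six2-only cells (SD, n = 3; edgeR adjusted p = 1.83e-05).

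Target genes of Myc in ribosome building and growth moved in a single direction among those called. In Wnt4 over Six2-only cells 20 of 30 were higher and 0 lower, with a median log2 change of 0.20 against -0.02 over all tested genes, of which 8.99% were called higher. The shares of all genes were not matched for level, and genes with many UMIs can pass at smaller changes. The called targets ranged from 18.5 CPM (Cad) to 8041 CPM (Ptma) in Six2-only cells. Cad, an enzyme of pyrimidine synthesis, was higher by 0.45 ± 0.13, and Srm and Odc1, enzymes of polyamine synthesis, by 0.38 ± 0.05 and 0.32 ± 0.05 (edgeR adjusted p = 0.0173, 5.25e-07 and 2.53e-05). Odc1 was at 215 ± 15.8 CPM in Wnt4 and 174 ± 23.5 CPM in Six2-only cells (SD, n = 3). Fgf8 over Six2-only cells had 17 of 30 higher and 0 lower, with a median of 0.12, where 5.31% of all genes were called higher and 4.75% lower. Wnt4 over Fgf8 cells had 3 higher and 0 lower, against 2.97% and 3.49% of all genes, and Lhx1 over Wnt4 cells 0 and 0, against 1.12% and 0.285%. At an unadjusted p under 0.05 edgeR had 24 higher and 0 lower in Wnt4 over Six2-only cells and 26 and 0 in Fgf8 over Six2-only cells. In Lhx1 over Wnt4 cells it had 1 higher and 7 lower. Of all 12269 tested genes, 3553, 2916 and 1251 were under that p in these comparisons, both directions together. DESeq2 called 16, 10 and 0 higher in these comparisons, and 0 lower in each.

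The counts of these targets depended on the fit. Without the library block 0 of 30 were called higher in either comparison with Six2-only cells, where edgeR called 259 and 1 of all genes, and 7 in Wnt4 and 1 in Fgf8 cells were higher at an unadjusted p under 0.05. With cells thinned to 5000 UMIs 3 were called in Wnt4 and 4 in Fgf8 cells. Without library 1 the numbers were 12 in Wnt4 and 6 in Fgf8 cells, and without library 1 Cad did not pass (edgeR adjusted p = 0.0972). Among cells without Mki67 and Top2a 8 were higher in Wnt4 and 14 in Fgf8 cells. The list also followed proliferation within Six2-only cells, where 25 of 30 were higher in cells with Mki67 or Top2a and 0 lower, against 20.6% and 18.8% of all genes. The share of such cells was 68.3% of Wnt4, 55.9% of Fgf8 and 47.2% of Six2-only cells.

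**Figure D5:**
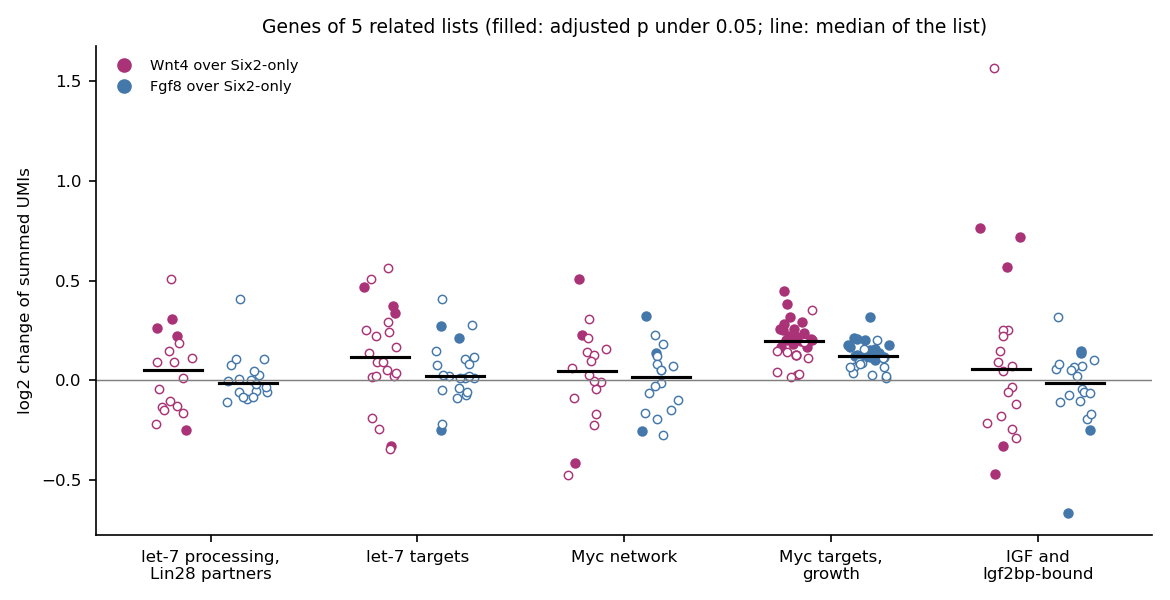
Log2 change of summed UMIs of the tested genes of 5 lists for Wnt4 over Six2-only and Fgf8 over Six2-only cells. Points are genes, filled where the adjusted p was under 0.05, and lines are medians. The Myc targets have the highest median in both comparisons, 0.20 and 0.12, and none of them is called lower.

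Transcripts of the insulin-like growth factor system, several of them bound by Igf2bp proteins, were called in both directions. Of 20 tested, 3 were higher and 2 lower in Wnt4 cells, with a median log2 change of 0.06, where 8.99% of all genes were called higher and 8.53% lower. Igf2, the fetal growth factor gene, was at 123 ± 12.7 CPM in Wnt4 and 70.3 ± 1.19 CPM in Six2-only cells (SD, n = 3; log2 change 0.77 ± 0.06, edgeR adjusted p = 4.13e-11). H19, the imprinted noncoding RNA next to Igf2, was at 787 ± 76.8 and 477 ± 55.0 CPM in the same order (0.72 ± 0.04, edgeR adjusted p = 2.71e-15). Igfbp4, a binding protein of the growth factors, was higher by 0.57 ± 0.05 (edgeR adjusted p = 1.13e-09). Igfbp2, another binding protein, fell by 0.47 ± 0.07 on the log2 scale (edgeR adjusted p = 3.96e-06) and Igf1r fell as given above. Of the genes named from the 5 lists, Igf2, H19, Igfbp4 and Mxd4 also passed without the library block. With thinned cells Ccnd1, Ccnd2, Igf2, H19, Igfbp4 and Igfbp2 passed, and among cells without Mki67 and Top2a Ccnd1, Ccnd2, Odc1, Igf2, H19 and Igfbp4. Under DESeq2 Tarbp2, Ccnd1, Aurka and Cad did not pass (adjusted p = 0.0947, 0.0633, 0.171 and 0.1).

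The genes whose levels were most like those of Mycn over the 12 sums, by Pearson's r of log2(CPM + 10) centred per library among 7959 genes, were H19 (0.988), Sdhd (0.984) and Ndufb8 (0.98). H19 was at 809 CPM in Lhx1, 787 in Wnt4, 527 in Fgf8 and 477 in Six2-only cells. Hmga2 was most like Smarcd2 (0.949), a subunit of a chromatin remodeller, Mis12 (0.943) and Dlgap5 (0.938), both of chromosome segregation. Myc was most like Trappc6a (0.978), R3hdm1 (0.977) and Zfp442 (0.975), and Hmga1 most like Nup37 (0.985), Ube2m (0.974) and Mtx2 (0.961). Igf2bp1 was most like Gtf2h1 (0.963), Herpud1 (0.962) and Pdss2 (0.957), Igf2bp2 most like Zswim6 (0.964), Fbxl18 (0.959) and Hoxa5 (0.958), and Igf2bp3 most like Cops2 (0.985), Peo1 (0.972) and Ppp1r35 (0.971). The sums share libraries and depth, and the highest of 7959 values over 12 sums is high by its choice, so these values describe the sums only.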

How the data were processed

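The deposited table holds counts of UMIs for each gene in each cell. Cell Ranger 1.3.1 and mm10 are named in the submitters' processing notes, and a version 2 kit with paired reads of 100 bases in the labels' protocols. A table joins the 3 libraries, marked by a barcode suffix. The sources used here do not say which label belongs to which suffix, or how cells were filtered before deposit. A second deposited copy had equal totals for all 27998 genes.

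Cells with at least 1000 genes and at most 10% mitochondrial UMIs were kept, 7898 of 7924. Scrublet (scanpy 1.11.5, run per library with an expected share of 3%) called 23 doublets (0.291%), which were left out. This is too few for the caller to have worked, so doublets have to be taken as still present, although per the labels' protocols the sort gated against them. A total of 22 barcodes occurred in more than 1 library. The 12 sums held 373985 to 22111992 UMIs.

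UMIs were summed per library and cell group and the 12 sums were fitted together in edgeR 4.0.16. The fit used TMM scaling and filterByExpr, which left 12269 genes, and the quasi-likelihood test was two-sided. The library is a block because all groups of a tube share it: deviations of same-library sums from the group means correlated at 0.435 to 0.991 across genes over 18 pairs of sums. On simulated data the code was tested with 200 changed genes. Alternatives were DESeq2 1.42.0, other filters, groups, depths and left-out libraries. AT-rich barcodes have 10 or more A and T among 16 bases.

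Genes named from lists are the 3 with the largest called change in each direction, and for likeness the 3 highest correlations, for genes with at least 100 UMIs and against genes of at least 10 CPM. Thinned cells had 5000 UMIs drawn at random. Intervals and limits for a count of 0 (3 counts) cover counting error only. The genes, groups and lists were chosen with earlier results of these data known. Gene positions are from GENCODE M21 (GRCm38, the sequence of mm10), and microRNA and promoter sequences from RefSeq.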

Additional observations from a re-analysis of the deposited data

How the results depend on the processing

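The call of Mycn held for Wnt4 over Six2-only and Wnt4 over Fgf8 cells under all 15 alternatives. The number of genes called moved by more than 1.5 times as follows. For Wnt4 over Six2-only cells it was 2149, and 1345 with DESeq2, 259 with no replicate block, 1011 to 2058 when a library was left out (1238 without library 3, the lowest without library 1), 269 with cells thinned to 5000 UMIs and 392 in cells without Mki67 and Top2a. For Fgf8 over Six2-only cells it was 1235, and 289 with DESeq2, 1 with no replicate block (2916 at an unadjusted p under 0.05 with the block), 339 (without library 1) to 1004 when a library was left out, 2175 with only the compared groups in the fit, 198 with thinned cells, 611 with cells holding markers of other types left out and 724 in cells without Mki67 and Top2a. For Lhx1 over Wnt4 cells it was 173, and 312 with no filter on low counts, 96 with no replicate block and also with only the compared groups in the fit, 54 (without library 1) to 255 when a library was left out, 25 with thinned cells, 69 without cells of other types and 11 in cells without Mki67 and Top2a. For Wnt4 over Fgf8 cells it was 792, and 437 with DESeq2, 98 with no replicate block, 319 (without library 1) to 903 when a library was left out (433 without library 3), 147 with thinned cells and 176 in cells without Mki67 and Top2a. For Six2-only cells with over without Mki67 or Top2a it was 4632, and 1691 with DESeq2, 1262 with no replicate block and 2198 with thinned cells. Myc targets called higher in Wnt4 over Six2-only cells were 20, and 0 with no replicate block, 12 to 21 when a library was left out, 3 with thinned cells and 8 in cells without Mki67 and Top2a. In Fgf8 over Six2-only cells they were 17, and 10 with DESeq2, 0 with no replicate block, 6 to 20 when a library was left out, 27 with only the compared groups in the fit and 4 with thinned cells.

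Log2 changes that turned sign, each with an adjusted p above 0.05 under the alternative, were these. For Wnt4 over Six2-only cells, Igf2bp2 (0.021) was at -0.329 with thinned cells, -0.035 with cells without Mki67 and Top2a, -0.004 with the highest doublet scores left out. Igf2bp3 (-0.008) was at 0.01 with DESeq2, 0.011 with only the compared groups in the fit, 0.118 with thinned cells, 0.0 with at least 2 UMIs of the defining gene, 0.005 with cells of other types left out, 0 to 0.01 when a library was left out. Hmga1 (0.195) was at -0.237 with thinned cells. Myc (-0.071) was at 0.087 with cells without Mki67 and Top2a. Aurka (0.507) was at -0.158 with cells without Mki67 and Top2a. Ruvbl2 (0.228) was at -0.041 with thinned cells. For Fgf8 over Six2-only cells, Igf2bp1 (-0.015) was at 0.002 with only the compared groups in the fit, 0.06 with thinned cells, 0.007 with cells of other types left out, 0.021 with cells without Mki67 and Top2a, -0.035 to 0.043 when a library was left out. Igf2bp2 (0.012) was at -0.043 with at least 2 UMIs of the defining gene. Igf2bp3 (-0.03) was at 0.013 with thinned cells. For Lhx1 over Wnt4 cells, Igf2bp2 (-0.16) was at 0.175 with thinned cells. Igf2bp3 (-0.209) was at 0.008 with cells without Mki67 and Top2a. Hmga1 (0.268) was at -0.054 with thinned cells, -0.074 with cells of other types left out. Mycn (0.028) was at -1.937 with thinned cells, -0.303 with at least 2 UMIs of the defining gene, -1.009 with cells without Mki67 and Top2a, -0.04 with the highest doublet scores left out, -0.12 to 0.104 when a library was left out. Myc (-0.374) was at 0.234 with thinned cells, 0.087 with cells without Mki67 and Top2a. For Wnt4 over Fgf8 cells, Igf2bp2 (0.009) was at -0.008 with no filter on low counts, -0.334 with thinned cells, 0.0 with cells of other types left out, -0.066 with cells without Mki67 and Top2a, -0.013 with the highest doublet scores left out, -0.034 to 0.072 when a library was left out. Igf2bp3 (0.022) was at -0.049 with cells without Mki67 and Top2a. Hmga1 (0.043) was at -0.262 with thinned cells, -0.082 with cells without Mki67 and Top2a, -0.015 to 0.083 when a library was left out. Hmga2 (0.059) was at -0.217 with thinned cells, -0.017 with at least 2 UMIs of the defining gene. Myc (0.028) was at -0.004 with no replicate block, -0.057 with thinned cells, -0.016 with cells of other types left out, -0.036 with the highest doublet scores left out, -0.075 to 0.081 when a library was left out. For Six2-only cells with over without Mki67 or Top2a, Igf2bp1 (0.073) was at -0.041 to 0.148 when a library was left out. Igf2bp2 (0.004) was at -0.002 with thinned cells, -0.005 with AT-rich barcodes left out, -0.017 to 0.01 when a library was left out.

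The cause of these changes was not tested. Lhx1 results rest on 79 cells, and the groups set anew after thinning hold 11, 11 and 9 Lhx1 cells in libraries 1, 2 and 3. Of 396 recomputed levels, 363 moved by less than 1 SD over libraries.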
